A study of Mus musculus with 18 samples.

Results

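Mitochondrially encoded transcripts were defined as every row of the deposited count table placed on chromosome MT, which gave 37 of the 55421 genes in the table. They comprised 13 protein-coding genes, 2 rRNA genes and 22 tRNA genes, and all 37 lay at the coordinates that GENCODE M21 gives on GRCm38. The series holds 18 striatal libraries, each from 1 mouse of C57BL/6 background, and the mice were between 12 and 14 months old. The 5 WT mice carried no altered allele. The 5 zQ175 mice were heterozygous for a knock-in Huntington's disease allele, in which the mouse Htt gene holds a chimeric human and mouse exon with an expanded CAG repeat. The 3 CK2a'(+/-) mice lacked 1 allele of Csnk2a2, the gene of the CK2α’ catalytic subunit of protein kinase CK2, and the 5 zQ175:CK2a'(+/-) mice carried both changes. The CK2α’ line had been obtained on a mixed background of 129/SvEv and C57BL/6J. Per the methods, that line had since undergone extended breeding with the other genotypes. The maternal line of each mouse, through which mitochondrial DNA passes, was not given in the sources used here. Total counts per library lay between 13612381 and 22702547, with a median of 18005044.

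The mitochondrial genome is a small circle that is transcribed from both strands into long precursors, and the tRNAs that punctuate it are cut out to release the rRNAs and mRNAs. Its mRNAs encode core subunits of respiratory complexes I, III and IV and of ATP synthase, its rRNAs form the mitochondrial ribosome, and its tRNAs serve translation inside the organelle. Striatal projection neurons depend on this respiratory chain for energy, and its function has long been studied in Huntington's disease. In bulk striatum, fewer cells of a type and less RNA per cell cannot be told apart.

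The targeted gene followed the labels. Csnk2a2 had 270 to 344 counts in CK2a'(+/-) and 227 to 337 counts in zQ175:CK2a'(+/-), against 481 to 684 counts in WT and 553 to 718 counts in zQ175, so the groups with and without the deleted allele did not overlap. The striatal identity of the tissue was checked on 9 markers of projection neurons, all of which were detected in every library, with Drd1 between 36.0 and 172 CPM and Ppp1r1b between 277 and 1464 CPM. Markers used for neighbouring tissue varied widely between libraries. The choroid plexus marker Ttr ranged from 0.854 to 2883 CPM and the cortical marker Slc17a7 from 4.32 to 201 CPM.

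Part of the mitochondrial genome has near-identical copies in the nucleus, and the sequences show where reads of 50 bases could be placed in either. The first 60 bases of mt-Co2, which encodes subunit 2 of cytochrome c oxidase (MT:7013-7072, plus strand, exon), were the same as those of its annotated copy Gm28661 (chr1:24615506-24615565, minus strand). The first 60 bases of mt-Nd3, a subunit of complex I (MT:9459-9518, plus strand), differed from the copy Gm28438 (chr1:24613060-24613119, minus strand) by the substitution T3C, counted from 1 at the start of the gene. The corresponding stretch of mt-Cytb, the cytochrome b of complex III (MT:14146-14205, plus strand), had 3 differences from its closest annotated copy Gm11410 (chr4:80003990-80004049, plus strand). For mt-Nd6, a complex I subunit (MT:14011-14070, minus strand), there were 2 differences from Gm11408 (chr4:80003855-80003914, minus strand). Capitals mark the bases that differ, and all sequences are RNA-sense DNA letters of GENCODE M21 transcripts on GRCm38.
mt-Co2: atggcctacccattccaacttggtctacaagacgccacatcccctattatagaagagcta
Gm28661: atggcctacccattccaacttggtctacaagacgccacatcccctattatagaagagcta
mt-Nd3: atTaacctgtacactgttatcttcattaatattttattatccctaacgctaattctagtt
Gm28438: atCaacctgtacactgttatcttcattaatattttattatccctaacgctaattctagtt
mt-Cytb: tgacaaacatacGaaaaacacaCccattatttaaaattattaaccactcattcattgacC
Gm11410: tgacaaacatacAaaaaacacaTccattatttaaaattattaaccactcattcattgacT
mt-Nd6: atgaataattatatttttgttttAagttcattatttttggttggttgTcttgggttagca
Gm11408: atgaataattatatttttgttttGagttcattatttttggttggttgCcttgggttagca

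Over the whole alignment, mt-Co2 matched Gm28661 at 100% of 681 bases and mt-Nd3 matched Gm28438 at 99.7% of 345 bases, whereas mt-Nd6 matched Gm11408 at 93.6% of 519 bases and mt-Cytb matched Gm11410 at 92.9% of 1142 bases. Adjoining mitochondrial genes can also share bases. The coding sequence of mt-Atp8, a subunit of ATP synthase (MT:7766-7969, plus strand), ends in 43 bases that are also the start of mt-Atp6, the a subunit of the same enzyme, and these are in capitals.
mt-Atp8: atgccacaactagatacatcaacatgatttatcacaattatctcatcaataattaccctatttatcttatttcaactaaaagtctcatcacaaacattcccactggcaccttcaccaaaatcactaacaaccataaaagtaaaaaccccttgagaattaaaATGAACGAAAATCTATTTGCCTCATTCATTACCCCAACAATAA

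The tRNA genes are 59 to 75 bases long, which is close to the length of a read. The 7 shown are those whose difference between zQ175 and WT had an unadjusted p under 0.05, together with mt-Tp, which had the second highest tRNA level; the group was chosen after its values were seen. Capitals mark the anticodon, found as the triplet of the amino acid at the centre of a loop closed by a stem of at least 4 pairs. The genes carry phenylalanine (mt-Tf, MT:1-68, plus strand), valine (mt-Tv, MT:1025-1093, plus strand), methionine (mt-Tm, MT:3845-3913, plus strand), alanine (mt-Ta, MT:5018-5086, minus strand), arginine (mt-Tr, MT:9808-9875, plus strand), histidine (mt-Th, MT:11546-11612, plus strand) and proline (mt-Tp, MT:15356-15422, minus strand).
mt-Tf: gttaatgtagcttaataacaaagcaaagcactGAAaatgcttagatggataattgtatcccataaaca
mt-Tv: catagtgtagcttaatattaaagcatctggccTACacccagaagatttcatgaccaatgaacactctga
mt-Tm: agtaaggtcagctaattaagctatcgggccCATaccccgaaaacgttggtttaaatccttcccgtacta
mt-Ta: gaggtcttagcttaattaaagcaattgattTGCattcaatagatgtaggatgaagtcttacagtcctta
mt-Tr: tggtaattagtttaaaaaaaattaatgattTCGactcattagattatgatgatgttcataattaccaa
mt-Th: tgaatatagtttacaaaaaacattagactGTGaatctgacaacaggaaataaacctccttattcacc
mt-Tp: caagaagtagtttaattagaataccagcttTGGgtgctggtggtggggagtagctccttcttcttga

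Mitochondrial transcripts took between 19.0% and 26.0% of the counts of a library, with the lowest share in WT replicate 3 and the highest in zQ175 replicate 3. The 2 rRNA genes held 82.7% to 89.6% of the mitochondrial counts, the 13 protein-coding genes 10.3% to 17.2%, and the 22 tRNA genes 0.0725% to 0.198%. Among the protein-coding counts the 7 complex I genes made up a median of 51.1%, the 3 complex IV genes 24.6%, mt-Cytb 23.9%, and the 2 ATP synthase genes 0.312%.

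Levels between genes were compared per length, as TMM-scaled CPM (read counts scaled to a common library size) per kilobase of gene, given as mean ± SD over 18 libraries. The rRNAs were the highest, with mt-Rnr2 at 78268 ± 9266 and mt-Rnr1 at 73378 ± 8648 CPM per kilobase, a difference smaller than the spread between mice. They code for the large and the small subunit RNA of the mitochondrial ribosome. The mt-Rnr2 mean was 11.3 times that of mt-Cytb, the highest mRNA. The mRNA of mt-Cytb stood at 6948 ± 788 CPM per kilobase, followed by mt-Co1, the catalytic subunit of complex IV, at 5136 ± 463 and by mt-Nd1 of complex I at 4762 ± 394. The levels of mt-Co1 and mt-Nd1 did not differ beyond their spread. Next in order were 3 further complex I genes, mt-Nd2 at 3454 ± 441, mt-Nd5 at 2820 ± 469 and mt-Nd4 at 2319 ± 334 CPM per kilobase. The means of neighbours in this order were no farther apart than the sum of their SDs. Within each library, however, mt-Nd2 stood above mt-Nd5 and mt-Nd5 above mt-Nd4.

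The other 7 mRNAs lay well below. The complex I gene mt-Nd6, the only protein-coding gene on the minus strand, had 674 ± 111 CPM per kilobase, and mt-Nd3 had 430 ± 140. The ATP synthase genes mt-Atp8 and mt-Atp6 had 148 ± 28.1 and 110 ± 14.6 CPM per kilobase. The complex IV genes mt-Co2 and mt-Co3 had 122 ± 19.6 and 68.2 ± 10.2, and mt-Nd4l of complex I had 68.7 ± 19.9 CPM per kilobase. The mean level per length of mt-Cytb was 102 times that of mt-Co3, and mt-Co1, mt-Co2 and mt-Co3 encode subunits of the same complex.

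Among the tRNAs, mt-Tv was the highest at 1106 ± 383 CPM per kilobase. It is the tRNA between mt-Rnr1 and mt-Rnr2. The next were mt-Tp at 859 ± 252, mt-Tm at 292 ± 104, mt-Tl1 at 242 ± 71.5 and mt-Ty at 221 ± 54.4 CPM per kilobase, of which mt-Tp and mt-Ty are among the 8 tRNA genes on the minus strand. A tRNA gene is close to the length of a read, so a read pair counted for it can also cover the gene beside it. Whether the tRNA counts came from free tRNAs or from the long precursors was not tested. The tRNA levels per kilobase are therefore uncertain, above all against those of longer genes. In all, 10 of 22 tRNA genes had a mean of at least 100 CPM per kilobase. At the other end mt-Tn had 0 to 9 counts and mt-Td 0 to 12 counts in a library, and these 2 genes did not pass the filter on low counts; 35 of the 37 genes were therefore tested.

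**Figure D1:**
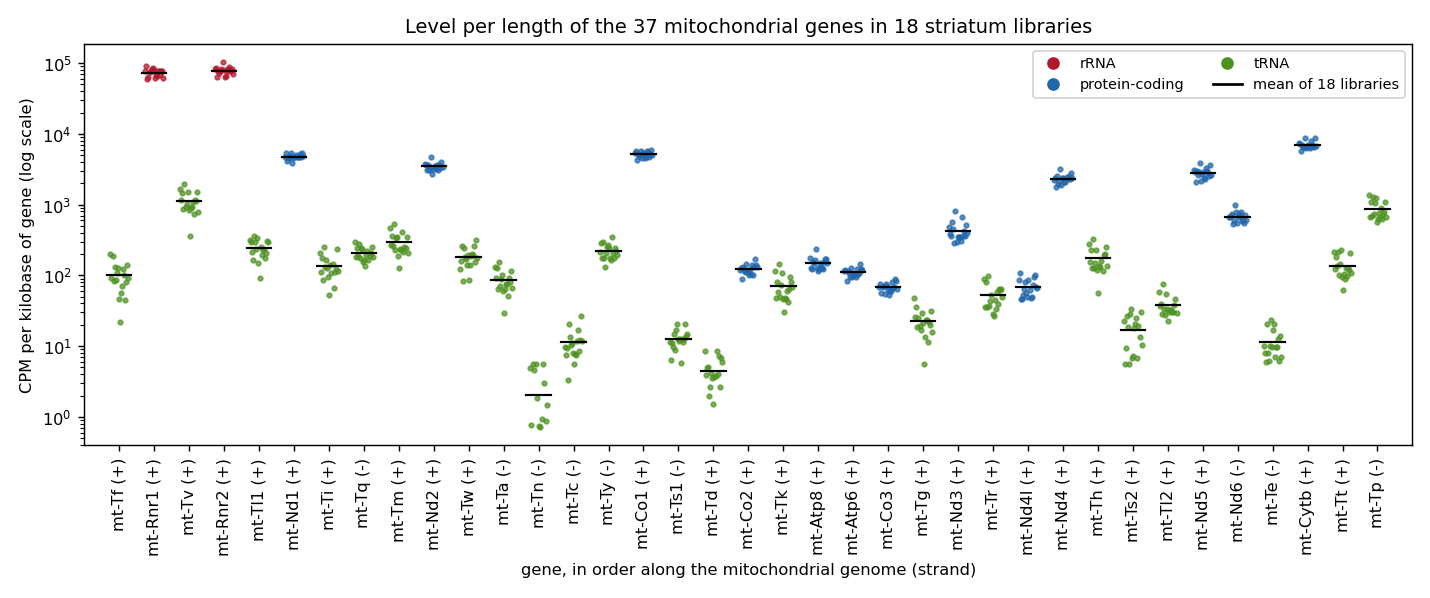
The vertical axis gives TMM-scaled CPM per kilobase of gene on a log scale, the horizontal axis the 37 genes in their order along the genome with the strand in brackets; each point is a library (libraries at 0 counts are not drawn) and each black line the mean of 18 libraries. Both rRNA genes stand above all others, at 73378 and 78268, 6 mRNAs stand between 2319 and 6948, and the neighbouring block from mt-Co2 to mt-Nd4l stands at or under 430.

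The genes with low levels were largely those with identical nuclear copies. Of the 50-base windows of mt-Co2, 100% occurred letter for letter in an annotated nuclear transcript, and the shares were 99.9% for mt-Co3, 99.5% for mt-Atp6, 98.8% for mt-Nd4l and 98.0% for mt-Nd3. The windows of mt-Nd4 were identical at 62.2% and those of mt-Co1 at 51.1%, and these genes stood at 2319 and 5136 CPM per kilobase. For mt-Nd2, mt-Nd5 and mt-Rnr2 the shares were 8.19%, 7.61% and 1.04%, and for mt-Nd1, mt-Cytb, mt-Nd6, mt-Rnr1 and every tRNA gene they were 0%. The gene mt-Atp8 was low with a share of 0%, but the 43 bases it shares with mt-Atp6 match the copy Gm10925. Nuclear sequence outside annotated transcripts was not searched, so a share of 0% does not show that a gene lacks a nuclear copy. By the positions above, the copies of mt-Co2 and mt-Nd3 lie as far apart on chromosome 1 as the genes on MT, and mt-Atp8 lies between these genes. The authors discarded reads below a mapping quality limit, a step that acts on reads which fit 2 places equally well. Its part in these levels was not tested, so the levels of mt-Co2, mt-Co3, mt-Atp6, mt-Nd4l and mt-Nd3 are uncertain. So are those of mt-Atp8 and of the tRNA genes that lie among the copied genes, mt-Tk, mt-Tg and mt-Tr. The copies themselves carried counts. Gm28661, the copy of mt-Co2, had 415 to 725 counts in a library and Gm10925, the copy of mt-Atp6, had 696 to 1361.

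**Figure D2:**
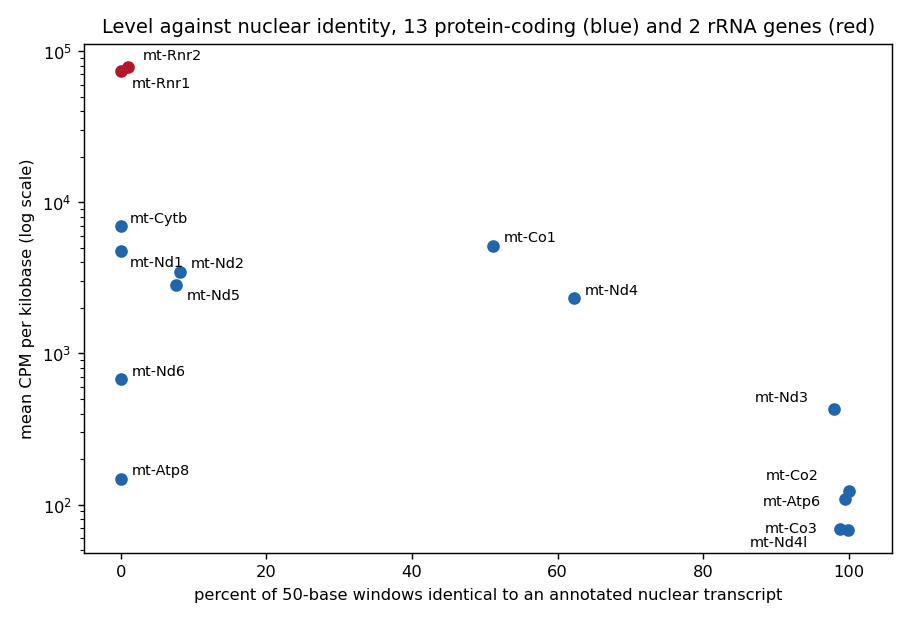
The vertical axis gives the mean CPM per kilobase on a log scale and the horizontal axis the percent of 50-base windows that occur identically in an annotated nuclear transcript, for 13 protein-coding genes (blue) and 2 rRNA genes (red). The 5 genes at 98.0% or more lie at or under 430 CPM per kilobase, and among the genes at 8.19% or less mt-Nd6 and mt-Atp8 lie lowest, at 674 and 148.

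The first question for the groups was whether the mitochondrial share of the transcriptome differed with genotype. It did not differ beyond the spread between mice. All 37 genes together took 22.1% ± 1.91 of counts in WT (SD, n = 5), 23.4% ± 2.13 in zQ175 (n = 5), 21.8% ± 1.58 in CK2a'(+/-) (n = 3) and 23.1% ± 1.24 in zQ175:CK2a'(+/-) (n = 5). WT libraries ranged from 19.0% to 24.0% and zQ175 libraries from 20.2% to 26.0%, so the groups overlapped, with zQ175 replicates 2 and 3 above every WT library and WT replicate 3 below every zQ175 library. The difference of zQ175 from WT was 1.34 percentage points (exact two-sided permutation test, p = 0.310, adjusted p = 0.782 over 30 share and ratio tests). For zQ175:CK2a'(+/-) the difference from WT was 1.06 percentage points (exact permutation p = 0.341, adjusted p = 0.782). With 1 mouse left out the first difference lay between 0.575 (without WT replicate 3) and 2.14 (without zQ175 replicate 5) percentage points, and was 0.679 without zQ175 replicate 3; the second lay between 0.302 (without WT replicate 3) and 1.54 (without WT replicate 2).

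The share of the 13 protein-coding genes was 2.78% to 3.46% in WT, 2.68% to 3.97% in zQ175, 2.98% to 3.53% in CK2a'(+/-) and 3.25% to 3.93% in zQ175:CK2a'(+/-). Both the lowest and the highest library of the 18 were zQ175 mice, replicates 3 and 2. The zQ175 mean of 3.33% exceeded the WT mean of 3.21% by 0.119 percentage points (exact permutation p = 0.659, adjusted p = 0.944). The share of the rRNA genes was 16.2% to 20.6% in WT and 16.7% to 23.3% in zQ175, a difference of 1.23 percentage points between means (exact permutation p = 0.365, adjusted p = 0.782). The log2 ratio of rRNA to protein-coding counts was 2.55 ± 0.08 in WT and 2.59 ± 0.33 in zQ175 (n = 5 each, exact permutation p = 0.849, adjusted p = 0.944). In zQ175 the ratio spread from 2.26 in replicate 5 to 3.12 in replicate 3. The smallest p that 5 against 5 mice allow in this test is 0.00794, and with 3 against 5 it is 0.0357.

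**Figure D3:**
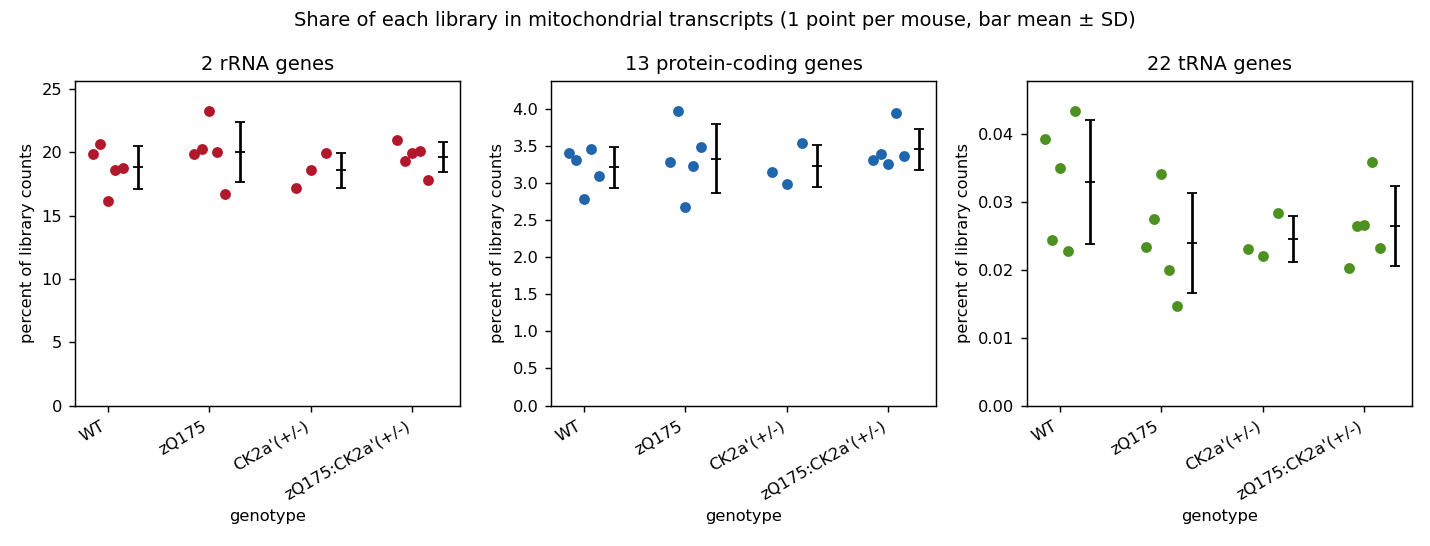
Each panel gives the percent of library counts in 1 class of mitochondrial gene on the vertical axis for the 4 genotypes, with 1 point per mouse and a bar for the mean ± SD. In every panel the genotypes overlap; the rRNA points lie between 16.2% and 23.3%, the protein-coding points between 2.68% and 3.97% and the tRNA points between 0.0146% and 0.0434%.

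The next question was whether a gene changed against the rest of the transcriptome. In zQ175 against WT, edgeR's quasi-likelihood test called 1.1% of the 20914 genes tested at an adjusted p (FDR) under 0.1, and 0 of the 35 mitochondrial genes tested. At an unadjusted p under 0.05 there were 6 mitochondrial genes, all of them tRNAs, and DESeq2, which called 2.28% of 37580 genes, called 0 of 37 with 5 at an unadjusted p under 0.05. These 6 of 35 are 17.1%, near the 13.9% of all genes at that level in edgeR, and in DESeq2 the shares were 13.5% and 8.52%. The count was 3 of 35 in the robust edgeR fit (8.57% against 13.5% of all genes) and 8 of 37 without the filter on low counts (21.6% against 11.5%). With 1 mouse left out the edgeR count ranged from 1, without WT replicate 5 or zQ175 replicate 5, to 11, without zQ175 replicate 3, and it was 2 without WT replicate 1 or zQ175 replicate 4. Without zQ175 replicate 3 the 11 genes were 31.4% of those tested against 13.3% of all genes, and without WT replicate 5 the share was 2.86% against 12.8%, so the distance from the background varied with single mice. The 35 fold changes were above 0 for 13 genes and below 0 for 22, with a median of -0.08 on the log2 scale against 0.00428 for all genes tested. The split became 4 above and 31 below (median -0.20) without zQ175 replicate 2 and 17 above and 18 below (median -0.00425) without zQ175 replicate 1. By class the signs were as follows. The rRNAs had 2 of 2 above 0, the mRNAs 9 of 13 above 0 with a median of 0.02, and the tRNAs 18 of 20 below 0 with a median of -0.47. When libraries were scaled to the mitochondrial protein-coding counts, 8 of the 35 genes lay above 0 and 27 below, with 18 of 20 tRNAs below 0 again but 4 of 13 mRNAs above 0 in place of 9, so the mRNA direction depended on the scaling. With 1 mouse left out the median lay between -0.09 and 0.07 for mRNAs and between -0.65 and -0.27 for tRNAs.

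For mt-Rnr1 the WT libraries had 57094, 60454, 70898, 72719 and 85389 CPM and the zQ175 libraries 59028, 73467, 75816, 79181 and 80801 CPM. These ranges lay inside one another, and the log2 fold change was 0.09 ± 0.108 (SE; edgeR FDR = 0.757). For mt-Rnr2 the WT libraries ran from 100515 to 133433 CPM and the zQ175 libraries from 99488 to 162530 CPM, with a log2 fold change of 0.10 ± 0.107 (edgeR FDR = 0.731). The mRNA of mt-Cytb had 6535, 7472, 8038, 8188 and 8527 CPM in WT and 7158, 7368, 7729, 7984 and 9973 CPM in zQ175. Its log2 fold change was 0.06 ± 0.105 (edgeR FDR = 0.858). The mRNA fold changes lay between -0.11 ± 0.127 for mt-Co3 and 0.14 ± 0.122 for mt-Nd4 on the log2 scale, and 12 of the 13 were smaller than their own SE.

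The tRNAs had wider errors, and none passed the test in all 18 libraries. The arginine tRNA mt-Tr had 2.39, 2.43, 5.56, 6.03 and 6.64 CPM in WT and 1.82, 1.92, 2.52, 2.98 and 3.60 CPM in zQ175. Replicates 1, 3 and 5 of WT were above every zQ175 mouse, whereas WT replicates 2 and 4 lay among them. Its log2 fold change was -0.83 ± 0.300 (edgeR FDR = 0.206), and it passed with FDR = 0.0952 and a log2 fold change of -1.004 in the fit without WT replicate 2. The valine tRNA mt-Tv had 59.0, 80.5, 100.2, 115 and 134 CPM in WT and 24.4, 57.3, 63.3, 70.0 and 102 CPM in zQ175, so the groups overlapped. Its log2 fold change was -0.62 ± 0.266 (edgeR FDR = 0.307).

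The other 4 tRNAs with an unadjusted p under 0.05 were mt-Tf at -0.82 ± 0.375, mt-Th at -0.69 ± 0.297, mt-Ta at -0.68 ± 0.282 and mt-Tm at -0.60 ± 0.257 on the log2 scale, with edgeR FDR between 0.284 and 0.335. Each overlapped between the genotypes, as the histidine tRNA mt-Th shows with 8.38 to 21.8 CPM in WT and 3.74 to 15.4 CPM in zQ175. The proline tRNA mt-Tp, with 44.0 to 90.4 CPM in WT and 38.4 to 83.7 CPM in zQ175, had a log2 fold change of -0.25 ± 0.219 (edgeR FDR = 0.655).

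The log2 ratio of tRNA to protein-coding counts, which does not depend on the nuclear counts, was -6.65 ± 0.49 in WT and -7.17 ± 0.57 in zQ175 (n = 5 each). The difference of -0.52 did not pass (exact permutation p = 0.175, adjusted p = 0.782). Replicates 1, 3 and 5 of WT stood at -6.44, -6.31 and -6.15 and replicates 2 and 4 at -7.08 and -7.25. Among the zQ175 mice replicate 3 stood at -6.30, with the high WT libraries, and replicate 5 was the lowest of all 18 at -7.89. A nuclear RNA of small size, Rn7sk, took 0.579% to 0.890% of counts in WT and 0.423% to 0.647% in zQ175, and nuclear genes no longer than the longest mitochondrial tRNA took 0.662% to 1.24% in WT and 0.607% to 1.49% in zQ175 of nuclear counts. Cell type marker levels, as mean log2 CPM of a list, are given for some of the lists beside these values, and their ranges overlapped between the genotypes. The 9 projection neuron markers stood at 7.61 to 8.82 in WT and 6.77 to 7.74 in zQ175, the 5 oligodendrocyte markers at 8.90 to 9.33 and 8.38 to 8.94, and the 4 cortical markers at 1.495 to 3.16 and 2.53 to 5.21. The part of these measures in the tRNA values was not tested.

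**Figure D4:**
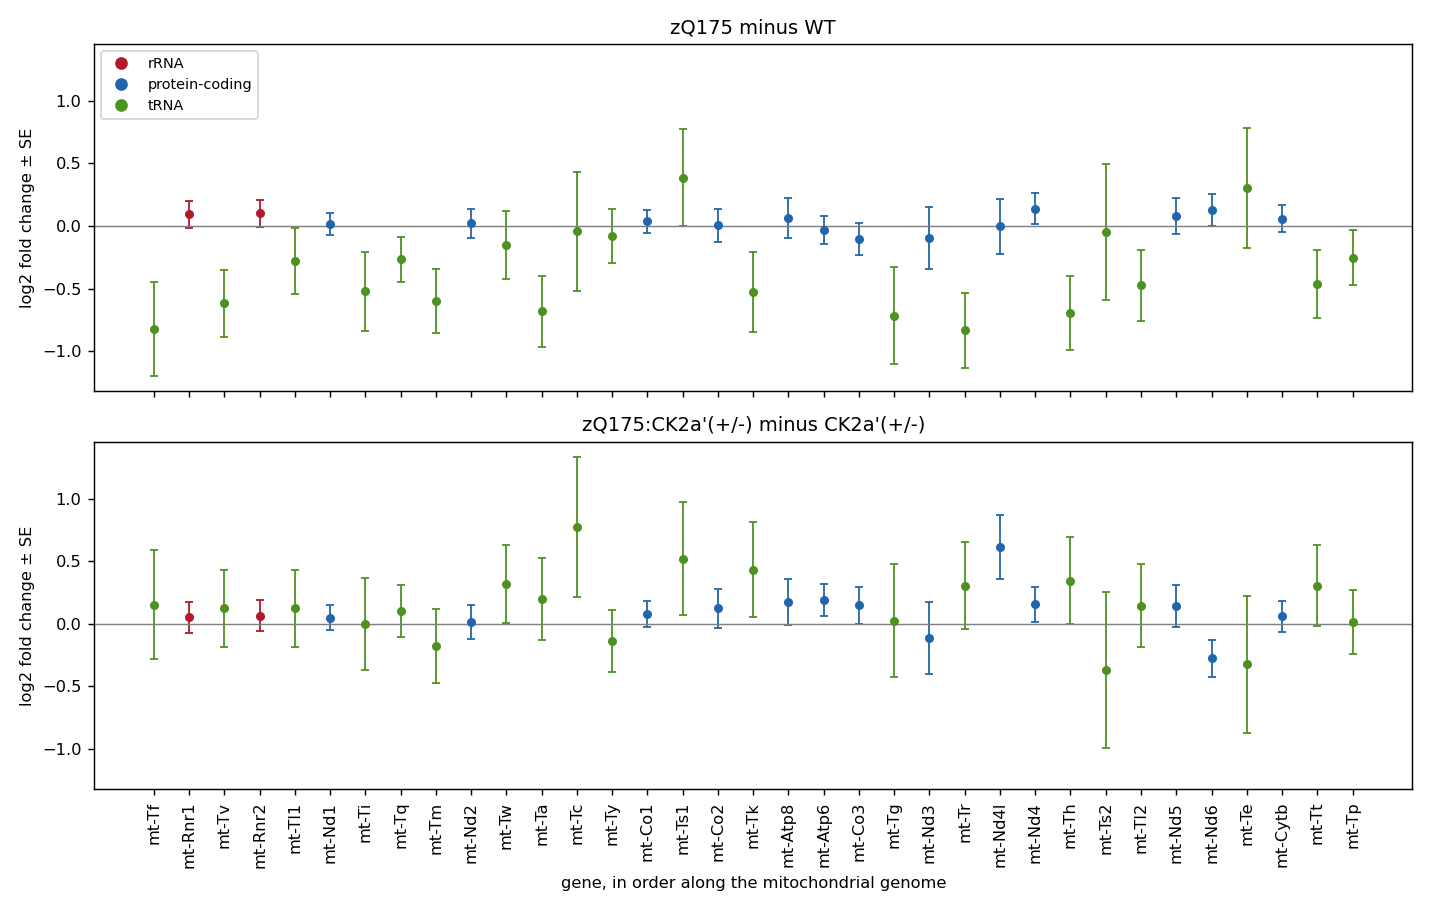
The vertical axes give log2 fold changes with their SE from edgeR, and the horizontal axis the 35 genes tested in genome order, for zQ175 against WT (upper panel) and zQ175:CK2a'(+/-) against CK2a'(+/-) (lower panel). In the upper panel 18 of 20 tRNAs lie below 0 and the mRNAs lie between -0.11 and 0.14; in the lower panel 15 of 20 tRNAs lie above 0.

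The remaining comparisons asked what the loss of 1 Csnk2a2 allele did alone and on top of zQ175. They share groups with the comparison above and with each other, so their values stand side by side and are not independent. In zQ175:CK2a'(+/-) against WT, edgeR called 0.0143% of all genes tested and 0 of 35 mitochondrial genes, with 1 at an unadjusted p under 0.05. DESeq2 called 0.327% of all genes and 0 of 37, also with 1 at that level. These shares were 2.86% against 9.13% of all genes in edgeR and 2.7% against 5.84% in DESeq2. The gene in edgeR was mt-Tm, with a log2 fold change of -0.57 ± 0.258 (edgeR FDR = 0.504). It had 18.01 to 36.9 CPM in WT and 14.5 to 23.9 CPM in zQ175:CK2a'(+/-). The fold changes were below 0 for 17 of 20 tRNAs, with a median of -0.33, and above 0 for 11 of 13 mRNAs, with a median of 0.09, which became 7 of 13 when scaled to the mitochondrial protein-coding counts. With 1 mouse left out the tRNA median lay between -0.46 (without WT replicate 2) and -0.19 (without zQ175:CK2a'(+/-) replicate 1) and the mRNA median between 0.02 (without WT replicate 3) and 0.12 (without WT replicate 1). The value for mt-Tv was -0.42 ± 0.266 (edgeR FDR = 0.674). Rn7sk took 0.460% to 0.797% of counts in zQ175:CK2a'(+/-) against 0.579% to 0.890% in WT. Projection neuron markers stood at 7.44 to 7.91 against 7.61 to 8.82 (mean log2 CPM). The part of these measures in the tRNA values was not tested here either.

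In CK2a'(+/-) against WT, edgeR called 0.0143% of all genes and 0 of 35 mitochondrial genes, with 1 at an unadjusted p under 0.05, and DESeq2 called 0.0293% of all genes and 0 of 37 with 3 at that level, which is 8.11% against 3.04% of all genes. The edgeR count at that level was 6 of 35 (17.1% against 3.72% of all genes) in the fit with only these groups and 7 of 37 (18.9% against 4.92%) without the filter on low counts. The gene in edgeR was the threonine tRNA mt-Tt, with 8.24 to 14.5 CPM in WT and 6.01, 6.96 and 8.51 CPM in CK2a'(+/-), a log2 fold change of -0.71 ± 0.323 (edgeR FDR = 0.999). Here 17 of 20 tRNAs lay below 0 with a median of -0.39, while the mRNA median was -0.02 with 6 of 13 above 0. The mRNA median was 0.04 with 10 of 13 above 0 when the Xist level was a covariate, so its sign depended on the setting. Rn7sk took 0.498% to 0.623% of counts in CK2a'(+/-) against 0.579% to 0.890% in WT, and its part in the tRNA values was not tested. The value for mt-Tv was -0.54 ± 0.312 (edgeR FDR = 0.999). All 3 groups with an altered allele were compared with the same 5 WT mice, so these tRNA medians are not independent of each other.

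In zQ175 against zQ175:CK2a'(+/-), the comparison that asks what the missing allele changed in the disease model, edgeR called 0.0143% of all genes and 0 of 35 mitochondrial genes. DESeq2 called 0.104% of all genes and 0 of 37, and 0 mitochondrial genes had an unadjusted p under 0.05 in either tool, against 6.27% of all genes in edgeR and 4.13% in DESeq2. Without the filter on low counts edgeR had 3 of 37 at that level (8.11% against 7.16% of all genes). The rRNA fold changes were 0.10 ± 0.108 for mt-Rnr1 (edgeR FDR = 0.937) and 0.05 ± 0.107 for mt-Rnr2 (edgeR FDR = 0.976) on the log2 scale. The mRNA median was -0.02 and the tRNA median -0.13, or -0.05 when scaled to the mitochondrial protein-coding counts, and 16 of 20 tRNA fold changes were smaller than their SE. With the Xist level as covariate 7 of 13 mRNAs lay above 0 in place of 3, and with 1 mouse left out the tRNA median lay between -0.36 (without zQ175 replicate 3) and 0.03 (without zQ175:CK2a'(+/-) replicate 4), so the sign of both classes depended on the setting or on 1 mouse. It was 0.02, with 13 of 20 tRNAs above 0, without zQ175 replicate 5.

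In zQ175:CK2a'(+/-) against CK2a'(+/-), edgeR called 0.593% of all genes and 0 of 35 mitochondrial genes, with 1 at an unadjusted p under 0.05, and DESeq2 called 0.857% of all genes and 0 of 37, with 1 at that level. These shares were 2.86% against 9.18% of all genes in edgeR and 2.7% against 5.75% in DESeq2. The gene in edgeR was mt-Nd4l, with 14.4, 14.5 and 18.1 CPM in CK2a'(+/-) and 19.8, 20.4, 21.5, 28.0 and 30.02 CPM in zQ175:CK2a'(+/-). The 2 groups did not overlap, but how many of all genes separate these groups was not counted. The log2 fold change of mt-Nd4l was 0.61 ± 0.258 (edgeR FDR = 0.453). Nearly all windows of mt-Nd4l are identical to nuclear transcripts, and WT libraries alone spread from 13.6 to 32.4 CPM. The tRNA fold changes lay above 0 for 15 of 20 genes with a median of 0.13, and for 13 of 20 with a median of 0.04 when scaled to the mitochondrial protein-coding counts, against 18 of 20 below 0 under both scalings for zQ175 against WT. Without zQ175:CK2a'(+/-) replicate 4 it was 11 of 20 with a median of 0.00719, and without CK2a'(+/-) replicate 3 it was 18 of 20 with a median of 0.26. The tRNA ratio was -7.05 ± 0.07 in CK2a'(+/-) (n = 3) and -7.05 ± 0.22 in zQ175:CK2a'(+/-) (n = 5).

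The test of that difference itself, the interaction of the zQ175 and CK2a'(+/-) genotypes, called 0.00478% of all genes in edgeR and 0 of 35 mitochondrial genes. At an unadjusted p under 0.05 there were 2, mt-Tr with an interaction of 1.14 ± 0.461 and mt-Th with 1.04 ± 0.458 on the log2 scale (edgeR FDR = 0.916 for both), and DESeq2 called 0.0506% of all genes and 0 of 37 with 4 at that level, which is 10.8% against 3.55% of all genes. Without the filter on low counts edgeR had 9 of 37 at that level (24.3% against 6.46%). The median interaction was 0.57 for tRNAs, 0.04 for mRNAs and -0.04 for rRNAs. With 1 mouse left out the tRNA median lay between 0.35 (without WT replicate 5) and 0.72 (without WT replicate 4), the mRNA median between -0.04 (without zQ175 replicate 3) and 0.18 (without zQ175 replicate 2) and the rRNA median between -0.11 (without WT replicate 2) and 0.04 (without CK2a'(+/-) replicate 3), so the mRNA and rRNA signs turned on single mice. Over all genes, the edgeR share at an unadjusted p under 0.05 was 5.39% for the interaction and 4.48% to 9.18% in the other 4 comparisons after the first, against 5.71% and 0% to 2.86% of the mitochondrial genes.

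The minus-strand mRNA mt-Nd6 was also measured against the other 12 mRNAs. Its log2 ratio to them was -6.55 ± 0.22 in WT, -6.50 ± 0.31 in zQ175, -6.38 ± 0.07 in CK2a'(+/-) and -6.74 ± 0.06 in zQ175:CK2a'(+/-). The CK2a'(+/-) mice lay between -6.45 and -6.32 and the zQ175:CK2a'(+/-) mice between -6.82 and -6.68, so these groups did not overlap. The difference of -0.36 had the smallest p the design allows (exact permutation p = 0.0357) and did not pass adjustment (adjusted p = 0.782). WT and zQ175 mice covered both ranges, from -6.83 to -6.06. Gene by gene, edgeR gave mt-Nd6 a log2 fold change of -0.28 ± 0.148 in this comparison (FDR = 0.610), 0.23 ± 0.129 for zQ175 against zQ175:CK2a'(+/-) (FDR = 0.832) and an interaction of -0.40 ± 0.196 (FDR = 0.916). Without zQ175 replicate 2 the last 2 values were 0.09 and -0.26.

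Mitochondrial transcripts of a class tended to vary together between mice, with exceptions. Over 18 libraries, the median Pearson correlation of log2 CPM was 0.55 among the 78 pairs of mRNAs, 0.57 among the 190 pairs of tRNAs and 0.79 for the pair of rRNAs. Between classes it was 0.06 for the 260 pairs of an mRNA with a tRNA, 0.22 for rRNA with mRNA and 0.28 for rRNA with tRNA. Pairs of tRNAs reached down to -0.47. The tyrosine tRNA mt-Ty had a median of -0.07 with the other tRNAs and of 0.35 with the mRNAs, and mt-Te had a median of -0.18 with the other tRNAs. The points share their library, so that depth and RNA composition enter all of them, and the values are a description. The spread between mice was 8.26% to 32.5% of the mean (coefficient of variation of the level) for the 15 rRNA and mRNA genes and 21.2% to 54.1% for the 20 tested tRNA genes.

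**Figure D5:**
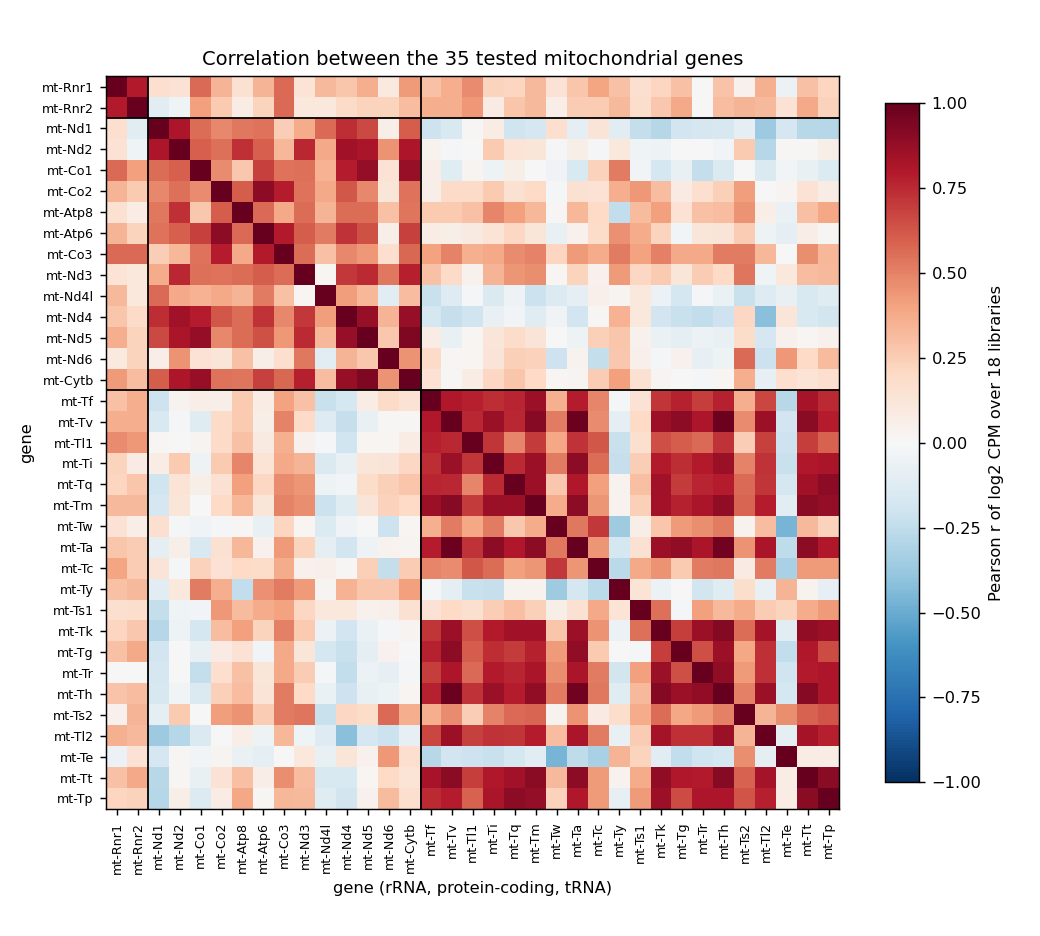
Both axes list the 35 tested genes by class (rRNA, protein-coding, tRNA, divided by black lines) and the colour gives Pearson's r of log2 CPM over 18 libraries, from -1 (blue) to 1 (red). The blocks within mRNAs (median 0.55) and within tRNAs (median 0.57) are mostly red and the block between them (median 0.06) is pale.

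The protein-coding share was compared with 6 properties of the libraries, and none passed after adjustment. With the oligodendrocyte marker level Pearson's r was -0.46 (permutation p = 0.0549, adjusted p = 0.219) and Spearman's rho -0.50 (permutation p = 0.0345, adjusted p = 0.207) over 18 mice, and -0.57 with group means removed (permutation p = 0.0143, adjusted p = 0.0856). Without the 2 mice farthest from the median marker level r was -0.53. With the astrocyte marker level r was -0.43 (permutation p = 0.0730, adjusted p = 0.219) and rho -0.43 (permutation p = 0.0743, adjusted p = 0.223), and r was -0.77 without the 2 farthest mice. For total counts r was 0.06 (permutation p = 0.819, adjusted p = 0.968).

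The nuclear genes that make and process mitochondrial RNA were examined as lists chosen with earlier results of these data known. Of 10 genes for mitochondrial transcription, among them Polrmt, the mitochondrial RNA polymerase, and Tfam, which packages mitochondrial DNA, all 10 were tested and 0 passed at FDR under 0.1 in edgeR in any of the 6 comparisons; Mterf1a, of the transcription termination factor family, had an unadjusted p under 0.05 in 2 of them. The 10 RNA processing genes, 7 RNA stability genes and 10 genes for mitochondrial DNA replication likewise gave 0 that passed in edgeR in each comparison. DESeq2 called 1 gene of these 4 lists in 1 comparison, the processing gene Hsd17b10 in zQ175 against WT (DESeq2 adjusted p = 0.0569), which is 2.7% of the 37 list genes, near the 2.28% of all genes. Hsd17b10 encodes a subunit of mitochondrial RNase P, which releases the 5′ ends of the tRNAs. It had a log2 fold change of -0.59 ± 0.184 in edgeR (FDR = 0.149) and was the 1 processing gene at an unadjusted p under 0.05, so its call depends on the tool. In the same comparison Lrpprc, which stabilizes mitochondrial mRNAs, had 0.15 ± 0.0718 (edgeR FDR = 0.346).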

How the data were processed

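Striatal total RNA of 18 mice had been made into libraries with a stranded total RNA kit and sequenced as read pairs. Per the labels and the methods, the authors used Trimmomatic for trimming and HISAT2 2.1.0 for alignment to GRCm38. Alignments were filtered on mapping quality and for duplicates before counting. The deposited values are raw counts per gene from Subread 1.6.2, without normalization. The deposited gene lengths (other values, in bases) were used for levels per kilobase. The strand setting of the counting is not given in the sources used here, so genes that overlap on opposite strands, such as mt-Nd5 and mt-Nd6, are uncertain.

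The main test was edgeR 4.0.16 (R 4.3.3): quasi-likelihood, TMM, filterByExpr, all 18 libraries, genotype as the factor, FDR under 0.1 by Benjamini-Hochberg over 20914 genes. SEs were derived from the F statistic. DESeq2 1.42.0 was an alternative. Shares and ratios (pseudocount 0.5) were compared with exact two-sided permutation tests, adjusted over 30, and relations with 100000 resamples (scipy 1.17.1). On simulated counts for zQ175 against WT, edgeR recovered 56.5% of 200 genes changed by a log2 of 1, over 20418 genes, with 13.1% of its calls false; DESeq2 recovered 62.5%, over 36431 genes, with 26.9% of its calls false. Libraries of a group differed beyond sampling noise in all 33 pairs (lowest chi-square per degree of freedom 8.59). All 15 rRNA and protein-coding genes were named, with the 5 highest tRNAs that passed the filter and any gene that passed FDR; other tRNAs named for an unadjusted p were chosen after their values were seen. The members and lists were chosen with earlier results of these data known. Sex was not in the labels of single mice, and the sex ratios given for the groups differ.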

Additional observations from a re-analysis of the deposited data

Results flagged for a closer look

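In groups of 5, a library was set apart where its gap to the nearest other mouse exceeded Dixon's 95% critical share of the group's range. Among 93 groups of values looked at 7 were so marked, and chance marks about 1 in 20. All 7 came from 2 mice. Replicate 4 of zQ175:CK2a'(+/-) had 3.93% of its counts in the 13 protein-coding genes, against 3.25% to 3.39% in the other 4 mice. The same mouse had 9905 CPM of mt-Cytb (others 7553 to 7938), 23.9 CPM of mt-Tm (others 14.5 to 17.2) and 13.7 CPM of mt-Tt (others 6.60 to 8.41). Replicate 2 of zQ175 had 283 CPM of mt-Nd3 (others 99.5 to 122), 98.9 CPM of mt-Co2 (others 68.6 to 77.1) and 87.7 CPM of mt-Atp6 (others 64.1 to 70.1). It also had the highest protein-coding share of the 18 libraries, 3.97%. The 3 genes set apart in zQ175 replicate 2 are among the 5 whose windows are nearly all identical to nuclear transcripts.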

How the results depend on the processing

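No mitochondrial gene was called in any of the comparisons run by DESeq2, with DESeq2 size factors, with TMM and library sizes taken without mitochondrial genes, scaled to mitochondrial protein-coding counts, without the filter, with only the groups compared (not run for the interaction), with the Xist level as covariate, in the robust fit or at FDR 0.05. Leaving out libraries gave 0 to 1 calls for zQ175 against WT and 0 elsewhere; the call was mt-Tr without WT replicate 2, at -1.004.

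The replicate numbers did not pair the mice: deviations of same-numbered mice correlated between -0.135 and 0.120 over 24 pairs, with 2 pairs over 0.1. A fit with the replicate block called 0 mitochondrial genes in every comparison, and it turned the rRNA ratio of zQ175:CK2a'(+/-) against CK2a'(+/-) from -0.0179 to 0.0681.

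Several differences near 0 changed sign when 1 mouse was left out. For zQ175 against WT the log2 fold changes ranged from -0.0118 to 0.177 for mt-Rnr2, -0.0450 to 0.0885 for mt-Cytb and -0.00484 to 0.200 for mt-Nd4, the protein-coding share from -0.0426 to 0.281 percentage points, the rRNA ratio from -0.0893 to 0.13 and the mt-Nd6 ratio from -0.0624 to 0.13. For zQ175 against zQ175:CK2a'(+/-) mt-Rnr2 ranged from -0.0529 to 0.12, the share of all 37 genes from -0.383 to 1.08, of protein-coding genes from -0.284 to 0.0401 and of rRNA from -0.418 to 1.24 percentage points, the rRNA ratio from -0.0487 to 0.17 and the tRNA ratio from -0.33 to 0.0646. For CK2a'(+/-) against WT the share of all 37 genes ranged from -1.08 to 0.494, of protein-coding genes from -0.143 to 0.133 and of rRNA from -0.923 to 0.452 percentage points, and the rRNA ratio from -0.0781 to 0.0168. For zQ175:CK2a'(+/-) against CK2a'(+/-) the rRNA ratio ranged from -0.0575 to 0.0375 and the tRNA ratio from -0.0731 to 0.0718. Taking the library total without the 10 most counted nuclear genes turned the protein-coding share of CK2a'(+/-) against WT to -0.0168 percentage points.

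With a mouse left out, the lowest unadjusted permutation p among the share and ratio tests was 0.0159, for the mt-Nd6 ratio of zQ175:CK2a'(+/-) against WT without WT replicate 5. Over all genes, edgeR calls for zQ175 against WT ranged from 0 (without WT replicate 3 or zQ175 replicate 5) to 587 (without WT replicate 2) with a mouse left out. Mitochondrial genes at an unadjusted p under 0.05 then numbered 0 to 7 for CK2a'(+/-) against WT and for the interaction, 0 to 6 for zQ175:CK2a'(+/-) against WT, 0 to 3 for zQ175 against zQ175:CK2a'(+/-) and 0 to 2 for zQ175:CK2a'(+/-) against CK2a'(+/-). The 7 arose without WT replicate 4, where they were 20% of the mitochondrial genes against 3.77% and 5.06% of all genes, and for the interaction also without zQ175 replicate 3 (5.42% of all genes). The 6 arose without zQ175:CK2a'(+/-) replicate 4 (17.1% against 9.18%), the 3 without zQ175 replicate 2 (8.57% against 6.82%) and the 2 without the former mouse (5.71% against 8.97%) or without the latter (5.71% against 9.34%).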

Other observations

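A list of 6 annotated copies of mitochondrial genes on chromosome 1 was tested, and edgeR called 0 of 6 in each of the 6 comparisons. Gm10222, which matches mt-Nd4l at 100% of 294 bases, was not on this list. For zQ175 against WT 1 had an unadjusted p under 0.05, the copy Gm28438 of mt-Nd3, with a log2 fold change of -0.45 ± 0.207 (edgeR FDR = 0.341); DESeq2 called 0 of 6 in each comparison, with 1 at an unadjusted p under 0.05 in zQ175 against WT. Per length, Gm29216, the copy of the end of mt-Co1, had a mean of 65.0 CPM per kilobase and Gm10925, the copy of mt-Atp6, 81.2 CPM per kilobase, which is of the size of mt-Atp6 itself at 110 CPM per kilobase.

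Nuclear rows that resemble ribosomal RNA held counts as well. Gm26917 ranged from 2922 to 5542 CPM and had a log2 fold change of 0.38 ± 0.0909 for zQ175 against WT (edgeR FDR = 0.0765), which passed the threshold, and 0.41 ± 0.0910 for zQ175:CK2a'(+/-) against WT (edgeR FDR = 0.204), which did not. DESeq2 called it in both, and also in zQ175:CK2a'(+/-) against CK2a'(+/-) (0.37, DESeq2 adjusted p = 0.0601), where edgeR gave 0.37 ± 0.106 (FDR = 0.167). Gm42418 ranged from 1782 to 4908 CPM and had 0.30 ± 0.198 for zQ175 against WT (edgeR FDR = 0.539).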
